A study of Mus musculus with 2 samples.

Results

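The BCL-2 family and mitophagy receptor genes, 10 of the 19465 genes measured, were followed in a pair of mouse heart sections. They were chosen by name for their role and not by their levels, though with earlier results of these data known. All 10 symbols were found in the deposited gene lists. The anti-death members were *Bcl2*, *Bcl2l1* (which encodes BCL-XL) and *Mcl1*. The pro-death members were *Bak1*, *Bid*, *Bad*, *Bcl2l11* (BIM) and *Pmaip1* (NOXA). *Bnip3* and *Bnip3l* (NIX) were the mitophagy receptors.

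Proteins of the BCL-2 family decide whether the outer mitochondrial membrane stays closed. BAK, the product of *Bak1*, opens pores in that membrane, and the anti-death proteins hold it and its activators in check. The BH3-only proteins BID, BAD, BIM and NOXA respond to damage or lost survival signals. They bind anti-death proteins, and some of them can also activate BAK. BNIP3 and NIX carry a related motif but sit in the outer membrane as receptors that hand mitochondria to the autophagy machinery. *Bnip3* is a well-known hypoxia-responsive gene of the stressed heart, and NIX clears mitochondria from maturing red blood cells.

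Spatial expression was measured in 1 section from each of 2 mice with the Visium CytAssist probe assay on formalin-fixed, paraffin-embedded hearts cut at 5 μm. The control mouse was α-MHC-MerCreMer+/−, which carries a tamoxifen-activated Cre that a cardiomyocyte promoter drives. The TOP2B transgenic mouse (α-MHC-MerCreMer+/− TOP2B LSL/−) carried the same Cre and, at the Rosa26 locus, a human TOP2B cDNA under a CAG promoter that stays silent until Cre removes a STOP cassette. Both mice received 1 intraperitoneal injection of tamoxifen at 80 mg/kg. The Cre and the drug were thus shared, and the transgene was the difference that the labels give. The study described its single-dose model in mice of 6 weeks, but the age of these 2 mice and the time from injection to harvest are not given in the sources used here.

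The control section held 14376300 unique molecular identifiers (UMIs, counted probe molecules) in 1256 spots over tissue, and the TOP2B section 12953389 UMIs in 924 spots. Levels are given as CPM, the UMIs of a gene per 1000000 UMIs of the section. With 1 section per genotype there was no replicate check and no test, and a difference compares these 2 sections only. Intervals are exact 95% intervals of counting error, and 4 quadrants of each section show the spread inside it. Over the 15236 genes with at least 20 UMIs in both sections together, the median log2 ratio of TOP2B over control CPM was 0.20, and 63.2% of genes were higher in the TOP2B section, so the members' ratios are read beside that value. The probes for mouse *Top2b* read 107 CPM in the control section and 102 CPM in the other. The transgene is a human cDNA and whether those probes read it is not stated, so this gene does not check the labels.

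The tissue in both sections was heart, with 9 of 10 cardiomyocyte markers measured and none of them at 0. Its marker levels differed between the sections. Cardiomyocyte markers made up 81985 CPM in the control section, and 43834 CPM in the TOP2B section, with 2 of the 9 higher in the latter. That list includes *Myh6*, *Myl2* and *Tnni3*, which the study reported as lower in TOP2B cardiomyocytes. Spots rich in these markers therefore need not hold more cardiomyocytes. Macrophage markers were at 295 and 570 CPM, and fibroblast markers at 1199 and 1767 CPM. Erythroid markers were at 2146 CPM in the control section, and 20420 CPM in the TOP2B section, 9.52-fold higher, with quadrants at 1696 to 2700 and 7858 to 47860 CPM. Each spot reads the RNA of several cells, so fewer cells of a type and less RNA per cell cannot be told apart. The larger differences of a member between marker-rich and marker-poor spots of a section are given beside it. For the differences between the sections, the part of cell makeup was examined only by the choices of spots described here and was otherwise not tested.

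*Bnip3* had the largest ratio of the 10 genes, so its promoter is shown. The sequence is the 250 bases before its RefSeq start in build GRCm38.p6, chr7:138909507-138909756 on the minus strand, 5′ to 3′. A match to ACGTG, a form of the hypoxia response core, is in capitals, and the form GCGTG is not marked. The match is read on both strands at once because the letters CACGTG are their own reverse complement, and it lies 108 to 103 bases before the start.
Bnip3: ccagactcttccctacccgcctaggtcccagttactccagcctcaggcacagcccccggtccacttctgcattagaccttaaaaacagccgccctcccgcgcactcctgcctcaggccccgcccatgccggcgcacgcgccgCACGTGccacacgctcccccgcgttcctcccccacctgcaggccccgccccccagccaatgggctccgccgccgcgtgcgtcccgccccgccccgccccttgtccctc
ACGTG on either strand was found in 6447 of 32851 promoter windows of 300 bases (19.6%), and CACGTG in 2349 of them (7.15%). Among the 8 members with a window that was searched, some of them with 2 or 3 windows, only *Bnip3* held ACGTG. The match was thus no more common among the members than among all windows (19.6%), and it does not set *Bnip3* apart. No window was searched for *Bnip3l* or *Pmaip1*. A match of letters is a description, and nothing was measured here about a factor that might bind it.

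*Bnip3* was at 81.2 CPM (76.6 to 86.0) in the control section and at 299 CPM (290 to 309) in the TOP2B section. The gene was thus 3.69-fold higher in the transgenic heart, with a log2 ratio of 1.88 (1.79 to 1.98), and 3.93% of all genes had a higher ratio. The 4 control quadrants lay at 76.7 to 90.1 CPM and the 4 TOP2B quadrants at 278 to 337 CPM, far from overlapping. A *Bnip3* UMI was present in 58.4% of control spots and in 92.4% of TOP2B spots. These shares were 48.0% and 89.3% at an equal depth of 8134 UMIs drawn from each spot, for which 140 control and 78 TOP2B spots were too shallow. The highest single spot held 6 UMIs in the control and 19 in the TOP2B section.

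The higher *Bnip3* level was seen in every tile of the section, though not in a patch of spots described below. Over 36 tiles of each section, the lowest, median and highest values were 53.3, 79.3 and 112 CPM in the control and 177, 295 and 428 CPM in the TOP2B section, so the lowest TOP2B tile stood above the highest control tile. Within the TOP2B section, spots were ranked by the share of their UMIs from each marker list, and the richest 33.3% were set against the poorest 33.3%. *Bnip3* differed little in these splits, with log2 ratios of rich over poor between −0.16 for cardiomyocyte markers and 0.25 for fibroblast markers, where the median of all genes was −0.14 and 0.20. The interval also excluded 0 for mural markers, at 0.14 (0.02 to 0.25) beside a median of 0.16. The log2 ratio between the sections was 1.73 (1.60 to 1.86) when only the 50% of spots richest in cardiomyocyte markers were used in each. Moran's I, a score that lies near 0 for a gene without spatial clustering, was −0.01 for *Bnip3* in the control and 0.25 in the TOP2B section, where 3.50% of genes scored higher.

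**Figure D1:**
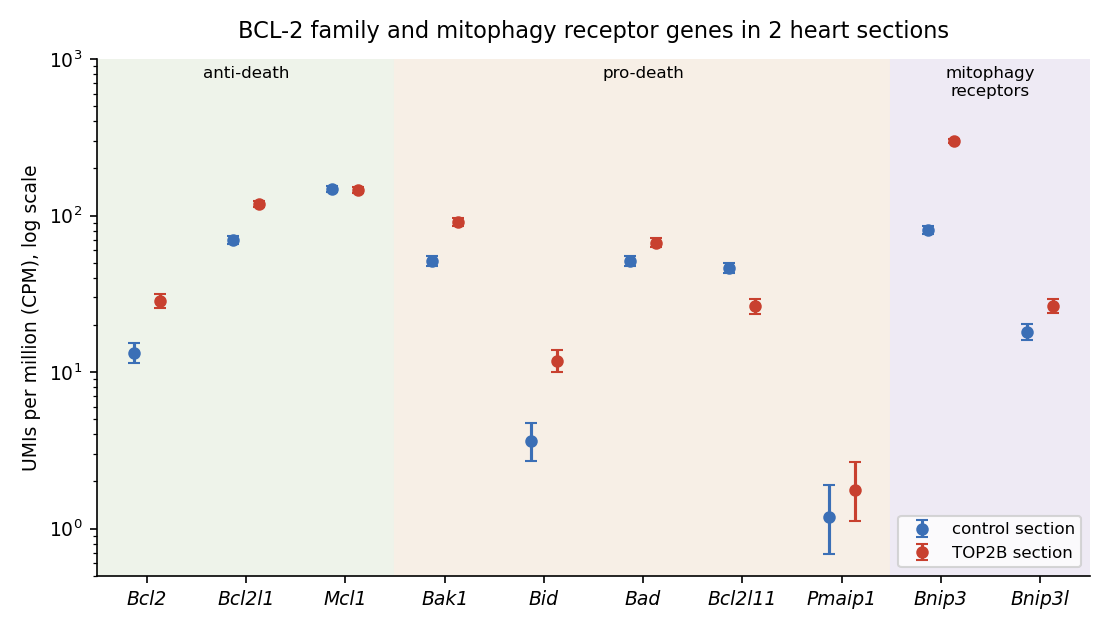
Level of each gene in the control section (blue) and the TOP2B section (red), in CPM on a log axis. Bars are exact 95% Poisson intervals of the counts. *Bnip3* reached 299 CPM in the TOP2B section, *Mcl1* lay at almost the same level in both, and *Bcl2l11* was the one gene whose intervals stood lower in the TOP2B section.

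The second mitophagy receptor behaved differently. *Bnip3l* was at 18.1 CPM (16.0 to 20.4) in the control section, and at 26.4 CPM (23.7 to 29.4) in the TOP2B section, a log2 ratio of 0.55 (0.31 to 0.78). Its quadrants overlapped, at 16.4 to 21.6 and 18.8 to 37.1 CPM. Over tiles of the TOP2B section it ran from 2.43 through a median of 20.9 to 199 CPM. Its highest tile was 81.7 times its lowest, where the same quotient was 2.42 for *Bnip3*.

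That spread followed the erythroid markers. In 40 spots of the TOP2B section, which touched each other and formed 1 patch within the gap at the center of the section, erythroid markers held 77.3% of the UMIs and cardiomyocyte markers 0.488%. *Bnip3l* was at 362 CPM (277 to 465, 61 UMIs) in this patch and at 18.3 CPM (15.7 to 21.2, 179 UMIs) in the 654 spots with under 1% of UMIs from erythroid markers. The difference was 19.8-fold, a log2 ratio of 4.31 (3.86 to 4.73). *Bcl2l1*, whose product BCL-XL is needed for the survival of developing red cells, shared the pattern with 534 CPM (429 to 657, 90 UMIs) against 108 CPM (102 to 115), 4.94-fold. The other 8 members together gave 15 UMIs in the patch, and *Bnip3l* and *Bcl2l1* gave 151 of the 166 member UMIs, or 91.0%. *Bnip3* had 4 UMIs there, 12.8-fold lower than in the spots poor in erythroid markers (log2 ratio −3.68, −5.56 to −2.32). *Mcl1* and *Bak1* had 3 UMIs each, and *Bid* and *Pmaip1* had 0, for which the exact interval runs to 21.9 CPM. Erythroid UMIs filled most of the patch's total, which lowers the CPM of every other gene there. Cardiomyocyte markers were lower too, at 0.488% of UMIs against 4.45% in the spots poor in erythroid markers. No median of all genes is given for the patch, so these low values are not read as particular to a gene.

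The patch was small, with 168507 UMIs or 1.30% of the section, and its spots were shallow at a median of 4254 UMIs against 15095. In the control section 5 touching spots passed the same 50% limit and held 5570 UMIs. Their only member UMIs were 3 from *Bnip3l* and *Bcl2l1*. This split by erythroid share was chosen after the spot maps were seen.

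**Figure D2:**
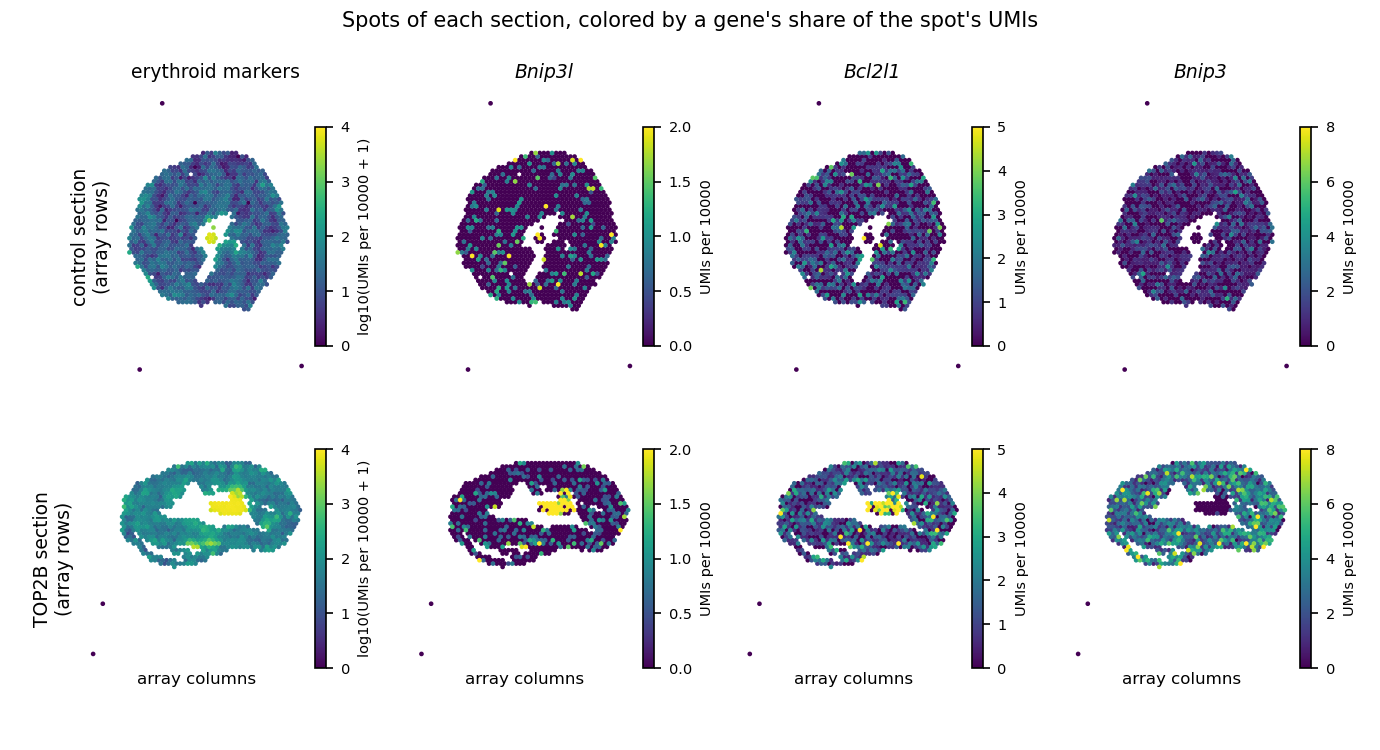
Spots of the control section (top) and the TOP2B section (bottom) at their array positions. Color is the share of a spot's UMIs, as log10(UMIs per 10000 + 1) for the summed erythroid markers and as UMIs per 10000 for each gene, with values above the end of each scale drawn in its last color. The patch of 40 spots within the central gap of the TOP2B section is bright for erythroid markers, *Bnip3l* and *Bcl2l1* and dark for *Bnip3*, which is bright in the surrounding wall.

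Outside the spots rich in erythroid RNA the receptors parted. With only spots under 1% of UMIs from erythroid markers, 1225 in the control and 654 in the TOP2B section, *Bnip3l* was at 17.9 and 18.3 CPM, with a log2 ratio of 0.03 (−0.26 to 0.31). The median of all genes over the same spots was 0.22. *Bnip3* over these spots was at 81.6 and 304 CPM, a log2 ratio of 1.90 (1.80 to 2.00). Over these spots the *Bnip3l* interval included 0, and the *Bnip3* ratio was as large as over all spots. These spots were not free of erythroid RNA, with erythroid markers at 0.165% of UMIs in the control and 0.490% in the TOP2B section. What made *Bnip3l* higher over all spots was not tested. In the 50% of spots richest in cardiomyocyte markers, *Bnip3l* was at 18.3 and 20.2 CPM, a log2 ratio of 0.14 (−0.22 to 0.49). In the TOP2B section *Bnip3l* was lower in spots rich in each of the other 5 marker lists. The log2 ratios were −0.90 for cardiomyocyte, −0.93 for mural, −0.72 for endothelial, −0.64 for macrophage and −0.55 for fibroblast markers. The medians of all genes ran from −0.14 to 0.20. The patch was kept in these splits and held 61 of the section's 342 *Bnip3l* UMIs. How far it shaped these values was not tested. The same splits of the control section gave −0.36 to 0.21 for this gene.

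Of the anti-death genes, 2 were higher in the TOP2B section beyond counting error, as were 39.4% of all genes. The interval of the other, *Mcl1*, included 0. *Bcl2*, the founding member of the family, was at 13.3 CPM (11.5 to 15.3) in the control section, and 28.4 CPM (25.6 to 31.5) in the TOP2B section, a log2 ratio of 1.10 (0.84 to 1.36). Its quadrants lay at 12.8 to 14.1 and 24.4 to 35.7 CPM and did not overlap. Within the TOP2B section it was higher in spots rich in macrophage markers, at 34.9 against 21.4 CPM, and in spots rich in fibroblast markers, at 34.2 against 23.3 CPM. The log2 ratios were 0.71 (0.32 to 1.11) and 0.55 (0.17 to 0.94), beside medians of all genes of 0.15 and 0.20. The fibroblast interval included its median. *Bcl2* UMIs were found in 13.9% of control and 30.7% of TOP2B spots, and in 10.3% and 20.7% after thinning.

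*Bcl2l1* was at 70.0 CPM (65.7 to 74.4) in the control section, and 119 CPM (113 to 125) in the TOP2B section, a log2 ratio of 0.76 (0.64 to 0.88), with quadrants at 65.2 to 76.0 and 114 to 129 CPM. Unlike *Bnip3l*, it stayed higher when the spots rich in erythroid RNA were set aside. With spots under 1% of UMIs from erythroid markers its log2 ratio was 0.62 (0.50 to 0.75), from 70.2 and 108 CPM. Within the TOP2B section it was at 108 CPM in spots rich and 130 CPM in spots poor in cardiomyocyte markers. That log2 ratio, −0.27 (−0.45 to −0.08), had an interval that included the median of all genes, −0.14. In the erythroid split *Bcl2l1* was at 149 against 102 CPM (0.54, 0.36 to 0.72), beside a median of −0.10. *Mcl1*, a short-lived protein on which the adult heart muscle depends, was the most abundant of the anti-death genes by UMIs, at 148 CPM (142 to 154) in the control section, and 146 CPM (139 to 152) in the TOP2B section. Its log2 ratio was −0.02 (−0.11 to 0.07), and the quadrants overlapped at 139 to 152 and 134 to 157 CPM. The interval of this log2 ratio lay below the median of all genes, 0.20, and 64.4% of genes had a higher ratio than *Mcl1*.

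**Figure D3:**
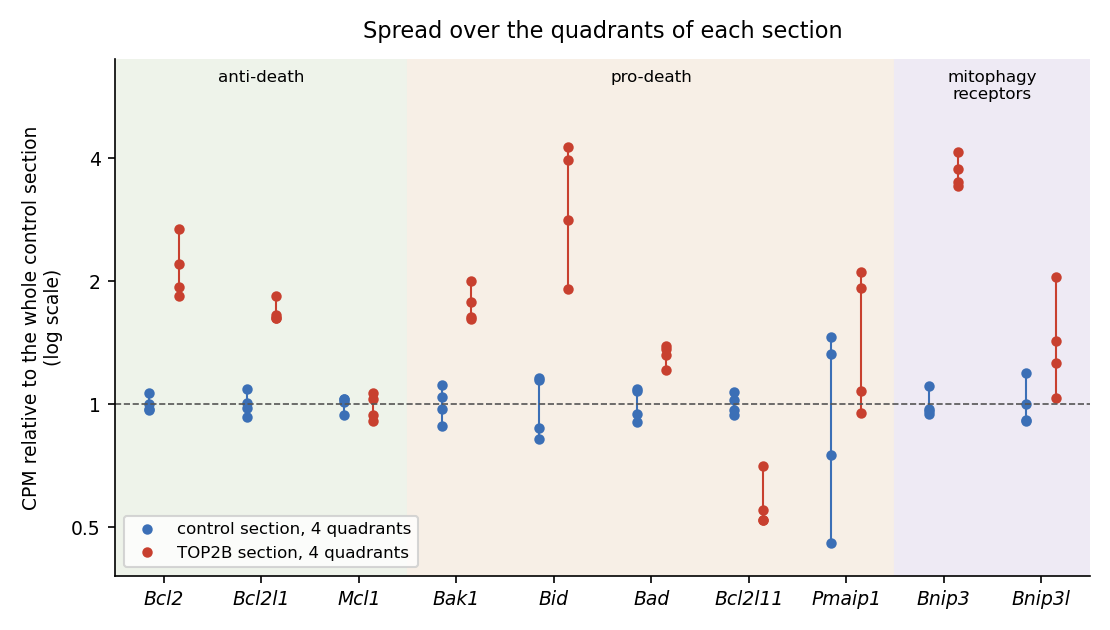
Level of each gene in the 4 quadrants of the control section (blue) and the TOP2B section (red), divided by its level in the whole control section, on a log axis with a dashed line at 1. The quadrants of *Bcl2*, *Bcl2l1*, *Bak1*, *Bid*, *Bad* and *Bnip3* lay above all control quadrants in the TOP2B section, those of *Bcl2l11* lay below, and those of *Mcl1*, *Pmaip1* and *Bnip3l* overlapped.

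Of the 5 pro-death genes, 3 were higher in the TOP2B section beyond counting error, as were 39.4% of all genes. *Bak1*, the pore former, was at 51.6 CPM (48.0 to 55.5) in the control section, and 90.9 CPM (85.8 to 96.3) in the TOP2B section, a log2 ratio of 0.82 (0.68 to 0.95). Its quadrants were at 45.6 to 57.5 and 83.5 to 103 CPM. *Bid*, which links death receptors and caspase-8 to mitochondria, was scarce at 3.62 CPM (52 UMIs) and 11.7 CPM (152 UMIs). It had the second largest ratio of the 10 genes at 1.70 on the log2 scale (1.23 to 2.18), with quadrants at 2.97 to 4.19 and 6.92 to 15.5 CPM. *Bad*, which binds BCL-2 and BCL-XL when survival kinases leave it unphosphorylated, was at 51.0 CPM (47.4 to 54.8) and 67.1 CPM (62.7 to 71.7), a log2 ratio of 0.40 (0.25 to 0.54). Its quadrants, at 46.1 to 55.4 and 61.8 to 70.9 CPM, did not overlap either. Of the 6 marker splits of the TOP2B section, the intervals of these 3 genes excluded 0 only for *Bak1* in the fibroblast split (81.6 CPM in rich against 98.1 in poor spots) and for *Bid* in the erythroid split (8.13 against 13.3 CPM). Their log2 ratios were −0.27 and −0.71, where the medians of all genes were 0.20 and −0.10.

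*Bcl2l11* went the other way. It was at 46.3 CPM (42.9 to 50.0) in the control section, and 26.2 CPM (23.5 to 29.2) in the TOP2B section, 1.76-fold lower, with a log2 ratio of −0.82 (−1.01 to −0.63). All 4 TOP2B quadrants, at 24.2 to 32.6 CPM, lay below the control quadrants at 43.7 to 49.5 CPM, and 91.8% of genes had a higher ratio. BIM, its product, can bind every anti-death member and activate BAK directly. In the TOP2B section it was lower in spots rich in cardiomyocyte markers, at 21.8 against 32.3 CPM (log2 ratio −0.57, −0.97 to −0.17), and higher in spots rich in fibroblast markers, at 31.9 against 20.3 CPM (0.65, 0.25 to 1.07). The macrophage and mural splits gave 0.48 (0.08 to 0.88) and 0.41 (0.02 to 0.81). Both intervals included the medians of all genes, 0.15 and 0.16. For the cardiomyocyte and fibroblast splits those medians were −0.14 and 0.20. In the control section the cardiomyocyte and fibroblast splits gave −0.24 and 0.18, with intervals that included 0. In the 50% of spots richest in cardiomyocyte markers the level was 44.2 CPM in the control section, and 23.0 CPM in the TOP2B section, a log2 ratio of −0.95 (−1.24 to −0.66). *Pmaip1*, a p53-responsive BH3-only gene that targets MCL-1, was near the limit of detection with 17 and 23 UMIs. Its levels of 1.18 and 1.78 CPM could not be told apart at this depth (log2 ratio 0.59, −0.38 to 1.58).

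**Figure D4:**
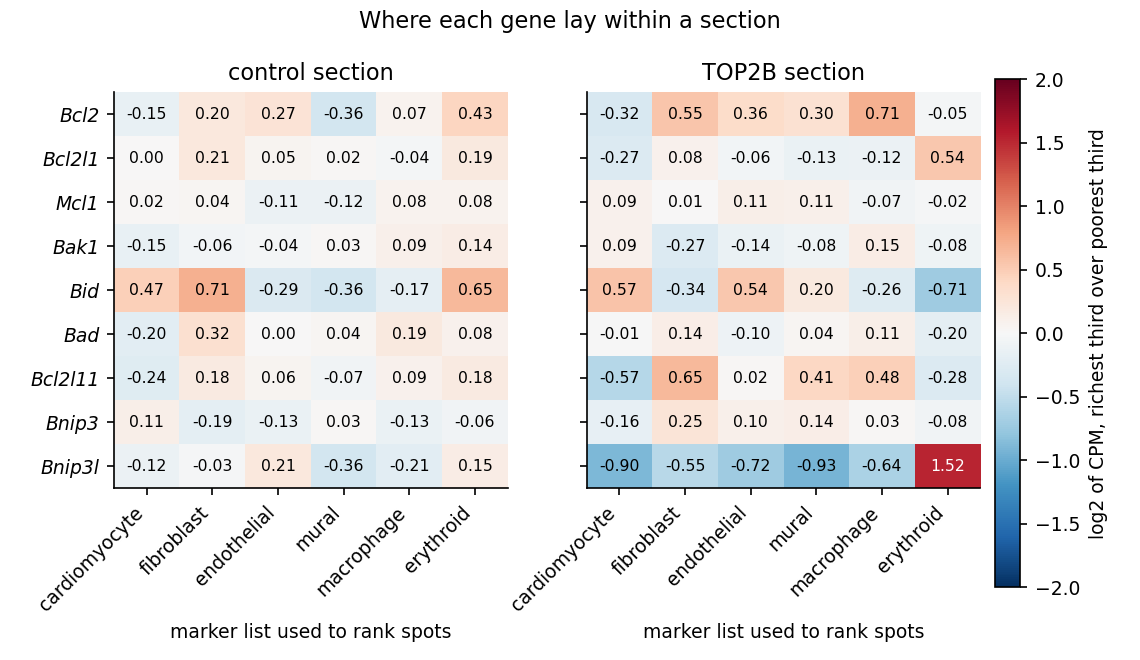
Log2 of a gene's CPM in the 33.3% of spots richest in a marker list over its CPM in the 33.3% poorest, for 6 lists in the control section (left) and the TOP2B section (right). *Pmaip1*, with too few UMIs, is left out. The strongest color is *Bnip3l* in the erythroid split of the TOP2B section (1.52), and the control section shows no value above 0.71.

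The members are set beside all genes, among which the same calls were common. Of the 10 genes, 3 (*Bcl2*, *Bid* and *Bnip3*) were at least 2-fold higher in the TOP2B section, beside 13.7% of all genes, and 0 were at least 2-fold lower, beside 5.61%. The interval of the log2 ratio lay above 0 for 7 members, beside 39.4% of genes, and below 0 for 1, beside 17%. All 4 TOP2B quadrants lay above all control quadrants for 6 members, beside 30.3% of genes, and below them for 1, beside 13.1%. The median log2 ratio of the 10 genes was 0.67, against 0.20 for all genes.

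By summed UMIs, the balance of the pro- and anti-death sides was nearly the same in both sections. The 5 pro-death genes held 2210 of 5531 pro- and anti-death UMIs in the control section, a share of 40.0% (38.7 to 41.3), and 2562 of 6351 in the TOP2B section, a share of 40.3% (39.1 to 41.6). The difference was 0.38 percentage points (−1.38 to 2.15, Newcombe interval). Quadrant shares overlapped at 37.9 to 40.8% and 39.1 to 41.9%. Both sums were higher in the TOP2B section, the pro-death sum at 198 against 154 CPM and the anti-death sum at 293 against 231 CPM. Probes differ between genes, so the share itself carries no meaning as a ratio of transcripts. Comparing the sections does not remove this limit, because each gene still counts by its UMIs, and *Mcl1* gave the most. A mean of the log2 ratios that weights each gene equally gave 0.54 for the 5 pro-death and 0.61 for the 3 anti-death genes, a difference of −0.08 (−0.31 to 0.15).

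The near-equal shares were made of different parts. *Bcl2l11* per *Mcl1* UMI was 0.314 in the control and 0.180 in the TOP2B section, while *Bak1* per *Mcl1* was 0.349 and 0.625, with quadrants at 0.305 to 0.379 and 0.556 to 0.686. *Bcl2l11* per *Bcl2l1* showed the widest gap, 0.662 against 0.221. *Bad* per *Bcl2l1* was 0.729 and 0.566, and *Bak1* per *Bcl2l1* was 0.738 and 0.767, with overlapping quadrants. The *Bad* and *Bak1* ratios to *Bcl2l1* moved when spots rich in erythroid RNA, where *Bcl2l1* was high, were set aside. In spots with under 1% of UMIs from erythroid markers *Bad* per *Bcl2l1* was 0.725 in the control and 0.631 in the TOP2B section. There *Bak1* per *Bcl2l1* was 0.734 and 0.866, and in the 50% of spots richest in cardiomyocyte markers 0.735 and 0.867. *Bcl2l11* was scarcer beside both *Bcl2l1* and *Mcl1* in the TOP2B section in the same spots too, at 0.659 and 0.250 per *Bcl2l1* and at 0.313 and 0.183 per *Mcl1* in spots with under 1%.

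The balance depended on which genes were counted. Without *Bcl2l11* the pro-death share was 31.7% in the control and 37.0% in the TOP2B section, 5.23 points higher. Without *Mcl1* it was 64.9% and 57.4%, 7.49 points apart in the opposite direction. With the further family genes added by role it was 53.6% and 56.3%. Counting *Bnip3* and *Bnip3l*, whose products carry a BH3-like motif, on the pro-death side gave 52.3% and 64.2%. The receptors held 20.5% of the UMIs of all 10 genes in the control and 39.9% in the TOP2B section, with quadrants at 19.2 to 22.3% and 36.8 to 42.7%. *Bnip3* alone held 16.8% and 36.7% of them, and *Mcl1* 30.5% and 17.8%.

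**Figure D5:**
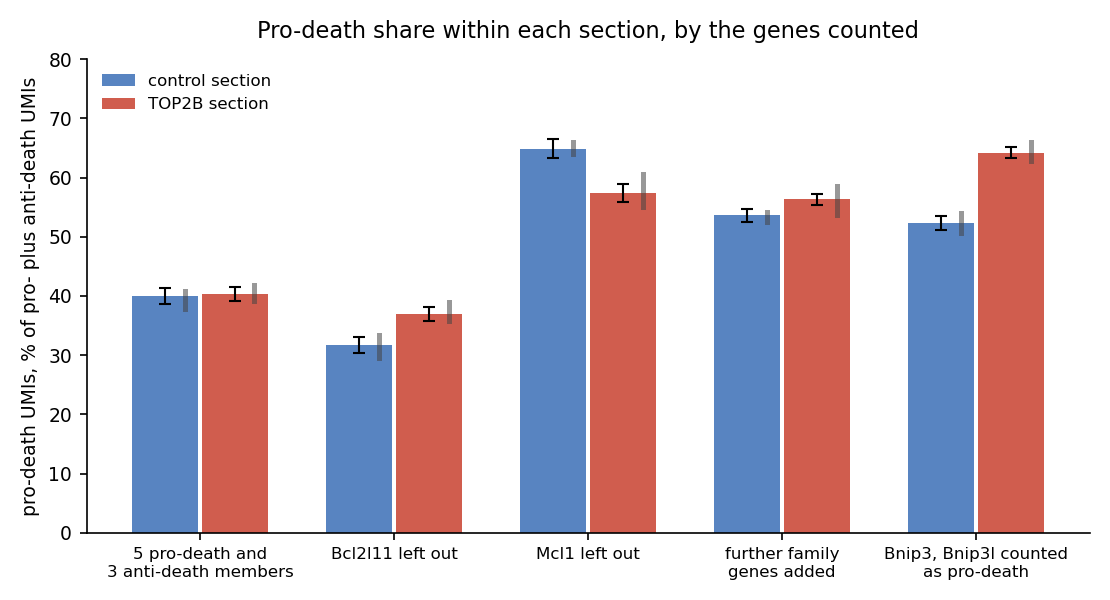
Share of pro-death UMIs among pro- and anti-death UMIs in the control section (blue) and the TOP2B section (red), for 5 choices of the genes counted. Thin bars are exact 95% binomial intervals and thick grey bars the range of the 4 quadrants. The sections were level at 40.0% and 40.3% for the 8 family members and moved apart in either direction with other choices.

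Inside the TOP2B section the balance also varied with the erythroid share. The pro-death share was 41.7% (40.3 to 43.1) in spots with under 1% of UMIs from erythroid markers and 6.93% (2.83 to 13.8, 7 of 101 UMIs) in the patch of 40 spots, where *Bcl2l1* made up 90 of the UMIs. In the control spots with under 1% it was 39.9% (38.6 to 41.2).

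The further genes of the same pathways are given from lists chosen by role. Of 12 other genes listed with the BCL-2 family and with at least 20 UMIs, 7 were higher and 5 lower in the TOP2B section. That is 58.3% higher beside 63.2% of all genes, with a median log2 ratio of 0.51 beside 0.20. The highest were *Bok* (a BAK-like effector, 8.42 and 38.7 CPM, log2 ratio 2.20), *Bcl2a1b* (an anti-death gene of blood cells, 1.25) and *Bbc3* (PUMA, a p53-responsive BH3-only gene, 1.04). *Bcl2a1b* rested on 28 control and 60 TOP2B UMIs (interval 0.58 to 1.95). The quadrants of *Bcl2a1b* and of *Bbc3* overlapped between the sections. *Bax*, the partner effector of *Bak1*, was at 104 and 169 CPM, a log2 ratio of 0.71 (0.61 to 0.80). The lowest were *Bik* (−0.55), *Bag1* (−0.35) and *Bcl2l12* (−0.26). *Bag1* encodes a co-chaperone that binds BCL-2 and is not itself a family member.

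Of 23 further mitophagy genes used, 14 were higher and 9 lower, or 60.9% higher, close to the share of all genes. Their median was 0.33, and 0 passed a 2-fold difference, beside 13.7% of all genes upward and 5.61% downward. The autophagy receptor gene *Sqstm1* (p62) was at 583 and 1080 CPM (log2 ratio 0.89), and the mitochondrial receptor gene *Fkbp8* (0.87) and the ATG8 gene *Gabarapl2* (0.73) followed. The lowest were *Nipsnap2* (−0.94), *Optn* (−0.83) and *Pink1*, the kinase that starts ubiquitin-dependent mitophagy, at 1125 and 684 CPM (−0.72). Of 18 apoptosome and caspase genes, 10 were higher (55.6%) and 8 lower, with a median of 0.19, close to that of all genes. Among the highest were *Cflar* (0.82), which encodes an inhibitor of caspase-8, and *Casp2* (0.72). The lowest were *Endog* (−1.26), *Cycs* (cytochrome c, −1.06) and *Aifm1* (−0.93), all 3 encoding proteins of the mitochondrial intermembrane space.

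The genes most like the abundant members across the 36 tiles were sought among 1840 genes with at least 1000 UMIs in each section, by the mean of the 2 sections' Pearson correlations of log2(CPM + 10). Tiles share their library and depth, so the values only describe these sections. *Bcl2l1* was most like *Slc25a51* (0.14 in the control, 0.84 in the TOP2B section), *March2* and *Hba-a2*, a hemoglobin gene (0.11 and 0.81), a likeness seen in the section with the erythroid-rich patch. *Mcl1* was most like *Tpt1* (0.43 and 0.73), and *Bnip3* most like *Eif3e* (0.52 and 0.65). The patch was kept in the TOP2B tiles for these genes too, and how far it shaped their values was not tested.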

How the data were processed

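The 10 members and all lists were chosen with earlier results of these data known. Per the file headers the counts were made by Space Ranger 2.0.0, and the submitters' notes name bcl2fastq and build GRCm39 (mm39). The probe set is not given in the sources used here. The deposited values were raw UMI counts per gene and spot, for spots over tissue, and were summed per section and expressed as CPM. Moran's I was used as the score the authors deposited. Depth was a median of 11335.5 UMIs per spot in the control and 14531 in the TOP2B section, where 1 spot had no UMI. In all, 4 control and 2 TOP2B spots lay apart from the tissue and were kept. A count of 3 equals 0.209 and 0.232 CPM. The sections share 725 spot barcodes by the array's design.

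CPM intervals are exact Poisson, shares Clopper-Pearson, and ratios conditional binomial, all at 95% and for counting error only. Python 3.11.15 and scipy 1.17.1 were used, and the calculations were tested on simulated data. Quadrants were cut at the center of the spots. No test over spots was run, no clusters were named and doublets do not apply to spots. Named genes were the members, *Bax* and the 3 highest and 3 lowest of each list with at least 20 UMIs. A single such gene is not reported here. *Bcl2a1a*, *Mtch2*, *Gabarap*, *Diablo*, *Vdac1* and *Actc1* were not analysed here. Promoters came from RefSeq, build GRCm38.p6, so no gene coordinates of the files' build are printed. As alternatives, CPM was rescaled by TMM (edgeR 4.0.16) or by size factors (DESeq2 1.42.0), and by totals without the 50 most abundant genes. Other choices of spots and genes and an added 1 CPM were tried too.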

Additional observations from a re-analysis of the deposited data

How the results depend on the processing

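No paired analysis was possible because each genotype had 1 section, and no replicate could be left out. The other scalings shifted all log2 ratios by −0.16 (TMM), −0.15 (DESeq2) and −0.09 (without the 50 most abundant genes). Over 11 alternatives none of the 8 members whose interval excluded 0 changed sign. The 8 members higher over all spots, beside 63.2% of all genes, stayed so, except *Pmaip1* in the 50% of spots richest in cardiomyocyte markers. *Mcl1* ranged from −0.18 to 0.04 and *Pmaip1* from −0.39 to 0.67. *Bnip3* ranged from 1.73 to 1.90 and *Bcl2l11* from −0.98 to −0.76. *Bnip3l* ranged from 0.03 (spots under 1% erythroid UMIs, chosen after seeing the data) to 1.00 (mean over spots). Its interval included 0 in the 50% of spots richest in cardiomyocyte markers (−0.22 to 0.49). The same held for each choice that set aside spots rich in erythroid markers (−0.26 to 0.31 in spots under 1%). The pro-death share moved with the genes counted. It was 52.3% and 64.2% in the control and TOP2B sections with both receptors, 64.9% and 57.4% without *Mcl1*, 53.6% and 56.3% with further family genes, and 31.7% and 37.0% without *Bcl2l11*, the last chosen after seeing the data. In the 50% of spots poorest in erythroid markers the control and TOP2B shares were 40.7% and 42.5%. They were 39.9% and 41.7% in spots under 1% erythroid UMIs, and 40.0% and 38.8% as a mean over spots. Which section had the higher share thus differed between these choices. The mean log2 ratio of pro-death minus anti-death genes was 0.26 without *Bcl2l11* and −0.39 without *Mcl1*, both chosen after seeing the data. The median of the further mitophagy genes was 0.17 with TMM, 0.18 with DESeq2 and 0.21 in the spots richest in cardiomyocyte markers. Depth limits *Pmaip1* and the scarce members inside the erythroid-rich patch.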
